A study of Homo sapiens with 11 samples.

Results

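BE(2)-C, a human neuroblastoma cell line that carries an amplified MYCN gene, was compared by small RNA-seq with 4 lines from other solid tumours. Its 2 libraries were set against 7 libraries of A-549 (lung cancer, 2), ES-2 (ovarian cancer, 2), MV3 (melanoma, 2) and PANC-1 (pancreatic cancer, 1). These 9 of the 11 libraries of the series were chosen by cell line, and 540 of 2588 miRNA names were kept whose mean reached 10 CPM in any of the 5 lines. CPM (counts per 1e+06 reads assigned to listed miRNAs) were used as levels. All cells were parental and received no siRNA. BE(2)-C was grown in another medium than the others and was harvested after 24 h by the protocol, although the sample characteristics say 48 h, the time given for the other lines. The 4 other lines were prepared with the NEXTflex kit from 50 ng of total RNA and are called the NEXTflex lines here, whereas Novogene prepared BE(2)-C. Sequencer, read length and site changed too, so cell line, medium, harvest and preparation cannot be told apart in any difference reported here. Each tumour type was represented by 1 established line, and PANC-1 by 1 library. Levels are shares of a library, so that a higher level of a miRNA and a lower level of all others cannot be told apart, nor can more RNA per cell and more cells that express it.

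MiRNAs are short RNAs that guide Argonaute proteins to messenger RNAs, mostly through pairing of the seed, bases 2 to 8, and thereby lower translation and stability of their targets. Each hairpin precursor gives a 5p and a 3p arm, of which usually a single arm is kept. Neurons and neuroblastic cells are known for miR-9, miR-124, miR-218 and the miRNAs of the imprinted DLK1-DIO3 region at 14q32. The miRNAs of this region are transcribed from the maternal chromosome and form one of the largest human miRNA clusters. MYC and MYCN activate the miR-17-92 cluster, and LIN28 proteins block the maturation of let-7.

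The mature sequences that carried the main differences are given first, with the seed in capitals. They were read from RefSeq (GRCh38.p14), in which 488 of the 540 tested miRNAs had an entry of the same name. The miRNAs listed first were abundant in BE(2)-C and had at most 33.6 CPM in ES-2 and MV3. They had unrelated seeds, although their genes lie in the 14q32 cluster.
miR-381-3p: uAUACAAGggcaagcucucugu
miR-370-3p: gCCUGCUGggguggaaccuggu
miR-127-3p: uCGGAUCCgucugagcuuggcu
miR-379-5p: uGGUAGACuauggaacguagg
miR-493-3p: uGAAGGUCuacugugugccagg
miR-495-3p: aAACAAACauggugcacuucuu
Genes on other chromosomes gave these abundant miRNAs of BE(2)-C.
miR-218-5p: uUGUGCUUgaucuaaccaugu
miR-7-5p: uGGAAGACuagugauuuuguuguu
miR-139-5p: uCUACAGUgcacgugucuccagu
miR-215-5p: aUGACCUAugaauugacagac
Lower in BE(2)-C than in each NEXTflex line were miR-221-3p and miR-222-3p, which share a seed, miR-31-5p and miR-10a-5p, as well as miR-21-5p, which was still abundant there.
miR-221-3p: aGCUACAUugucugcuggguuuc
miR-222-3p: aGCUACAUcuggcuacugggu
miR-31-5p: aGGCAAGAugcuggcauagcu
miR-10a-5p: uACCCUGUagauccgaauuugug
miR-21-5p: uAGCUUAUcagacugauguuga
MiR-99a-5p and miR-100-5p share a seed as well, but the former was high and the latter low in BE(2)-C.
miR-99a-5p: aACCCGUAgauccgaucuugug
miR-100-5p: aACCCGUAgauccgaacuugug

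Between 1173902 and 9746838 reads were assigned to miRNAs in the NEXTflex libraries and 7520904 and 6540070 in BE(2)-C. Where no read was found, up to 3 reads remain possible, or 0.308 CPM in the deepest and 2.56 CPM in the shallowest library. Log2 differences of miRNAs with so few reads in a group depend on the pseudocount of 1 CPM and are not bounds. Intervals and floors cover counting error only. Labels and methods name biological replicates without their source cultures, so that p-values measure the spread between these libraries. The BE(2)-C libraries stood apart from each other. Of 231 miRNAs with a mean of at least 100 CPM in BE(2)-C, 59 (25.5%) differed over 2-fold between its libraries on log2(CPM + 1), against 1 of 154 in A-549, 0 of 141 in ES-2 and 0 of 158 in MV3. Values of both BE(2)-C libraries are therefore given in the order replicate 1 and replicate 2, and key counts also without either of them.

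Of 540 miRNAs tested, 278 (51.5%) were higher and 160 (29.6%) lower in BE(2)-C than in the mean of the 4 NEXTflex line means at an adjusted p under 0.05. The test was a two-sided limma contrast on log2(CPM + 1), to which all differences below refer as log2 differences. The spread was pooled over lines although the BE(2)-C libraries varied more, so that SE and adjusted p may be too small. With library weights, which were lower for BE(2)-C, 247 were higher and 136 lower. The median log2 difference of all tested miRNAs was 0.98, and a list's median is read against it. Quantile normalization moved this median to -0.31 and the calls to 207 higher and 233 lower, so that the share of calls that were higher fell from 63.5% to 47%. The balance between higher and lower miRNAs thus depended on scaling, while 367 of the 438 calls were made in the same direction under both scalings and 5 went from higher to lower. Without BE(2)-C replicate 1 the counts were 276 and 142, and without replicate 2 they were 253 and 163. Against each of the 4 lines separately, 172 (31.9%) were higher and 73 (13.5%) lower in BE(2)-C in all 4 contrasts. The filter itself favoured differences. Of the 540 miRNAs, 87 passed only through BE(2)-C and 139 only through a NEXTflex line, whereas 314 reached 10 CPM on both sides, of which 186 were higher and 69 lower. At the edge of the filter, miR-3935 was kept with 10.2 CPM in MV3 and miR-4517 was left out with 9.96 CPM in ES-2.

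**Figure D1:**
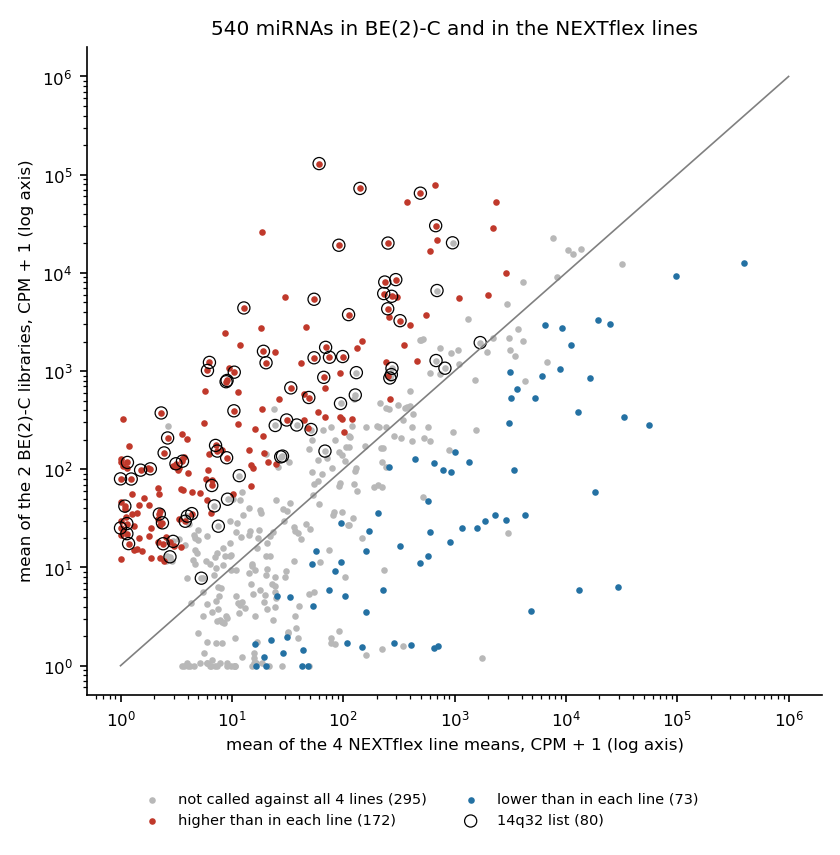
Mean CPM + 1 of the 2 BE(2)-C libraries (vertical, log axis) against the mean of the 4 NEXTflex line means (horizontal, log axis) for the 540 tested miRNAs; each point is a miRNA, and the line marks equal levels. The 172 miRNAs higher than in each line (red) include most of the ringed 14q32 miRNAs, and the 73 lower ones (blue) reach from abundant miR-21-5p to miRNAs near 0 in BE(2)-C.

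The imprinted 14q32 miRNAs were the most prominent difference. Together, the 92 mature miRNAs of the cluster list took 44.9% (95% Wilson interval 44.8% to 44.9%) and 43.5% (43.5% to 43.6%) of the reads of the BE(2)-C libraries. Their share was 3.25% (95% Wilson interval 3.24% to 3.26%) in PANC-1, 0.875% and 0.860% in A-549 and 0.0312% and 0.0300% in MV3. In ES-2 it was 0.000661% in replicate 1 and 0.00819% in replicate 2, which rest on 11 and 188 reads. BE(2)-C was thus above all 7 NEXTflex libraries, and among these PANC-1 and then A-549 were highest. Hep-G2, a liver tumour line that Novogene prepared as well and that entered no test, had shares of 0.0026% and 0.00227%. Of the 92 members, 80 were tested, 80 were higher and 0 lower, and 55 were higher than in each of the 4 lines. Of all 540 tested miRNAs, 51.5% were higher, and 31.9% were higher than in each line. Their log2 differences ranged from 1.52 to 13.19 with a median of 5.83. Quantile normalization left 77 of 80 higher. Among the 80, 21 had passed the filter only through BE(2)-C. A list chosen with the levels of these libraries known gives no independent evidence of its direction.

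MiR-381-3p was the most abundant miRNA of BE(2)-C, with 116043 and 143265 CPM in the BE(2)-C libraries, 115 and 84.9 in A-549, 0 and 1.31 in ES-2, 0.852 and 0.645 in MV3 and 137 in PANC-1 (log2 difference 13.19, SE 0.34, adjusted p = 5.94e-07). It was thus near absent from ES-2 and MV3 and low in A-549 and PANC-1. MIR381 lies at chr14:101045968-101045989 on the plus strand (mature 3p arm, GRCh38), where the annotation has an intron of MEG9, a long non-coding RNA. MiR-370-3p showed 86019 and 58788 CPM in the BE(2)-C libraries, 105 and 103 in A-549, 0 and 3.49 in ES-2, 0.852 and 0 in MV3 and 455 in PANC-1 (log2 difference 11.85, SE 0.57, adjusted p = 5.17e-06). Its gene lies at chr14:100911186-100911207, in introns of MEG8 and MIR493HG. MiR-127-3p, which is antisense to the coding sequence of RTL1, a retrotransposon-derived gene of the same domain, had 70105 and 59481 CPM in the BE(2)-C libraries, 349 and 369.8 in A-549, 0 and 1.31 in ES-2, 1.7 and 0 in MV3 and 1608 in PANC-1 (log2 difference 10.86, SE 0.46, adjusted p = 3.08e-06). For each of these, both BE(2)-C libraries were more than an order of magnitude above the highest NEXTflex library.

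MiR-379-5p heads the second, distal group of the cluster, and it reached 34898 and 25587 CPM against 0 to 2130.2 CPM in the NEXTflex libraries. MiR-495-3p reached 24494 and 15736 CPM (0 to 793 in NEXTflex) and miR-493-3p 22385 and 15847 CPM (0 to 298). Other abundant members were miR-409-3p with 23652 and 16828 CPM, miR-654-3p with 6120.3 and 10951, miR-323a-3p with 5723 and 6591 and miR-411-5p with 5716 and 10421. MiR-134-5p, known for limiting dendritic spine growth, had 6015 and 4755 CPM against 0 to 132 (log2 difference 8.80, SE 0.36, adjusted p = 2.94e-06). MiR-758-3p (3449 and 5336 CPM), miR-431-3p (915 and 1114) and miR-136-5p (1242 and 1207) were also among the 12 largest increases, each with at most 33.1 CPM in any NEXTflex library. Not every member stood apart, as both BE(2)-C libraries were above all 7 NEXTflex libraries for 68 of the 80 tested members, against 212 of all 540 miRNAs. An example of overlap was miR-493-5p, with 1277 and 2621 CPM in BE(2)-C but 957 and 1055 in A-549 and 5786 in PANC-1.

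The cluster spanned 214 kb from 100852409 to 101066786 on chromosome 14, by the RefSeq positions of 91 members, all on the plus strand. Levels within it varied by orders of magnitude in BE(2)-C. The 5 most abundant members held 73.9% and 69.8% of its reads, 23 members exceeded 1000 CPM in both libraries, and 12 stayed under 10 CPM in every line. In PANC-1, 8 members exceeded 1000 CPM, and in A-549 a single member did in 1 library. The plot of levels along the cluster shows abundant members of BE(2)-C in both the proximal and the distal group. Host gene annotation differed by position, with MIR493HG around miR-493, miR-431, miR-127 and miR-136, MEG8 around miR-379, miR-758 and miR-495, an intron of MEG9 around miR-381 and an exon of MEG9 at miR-134.

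**Figure D2:**
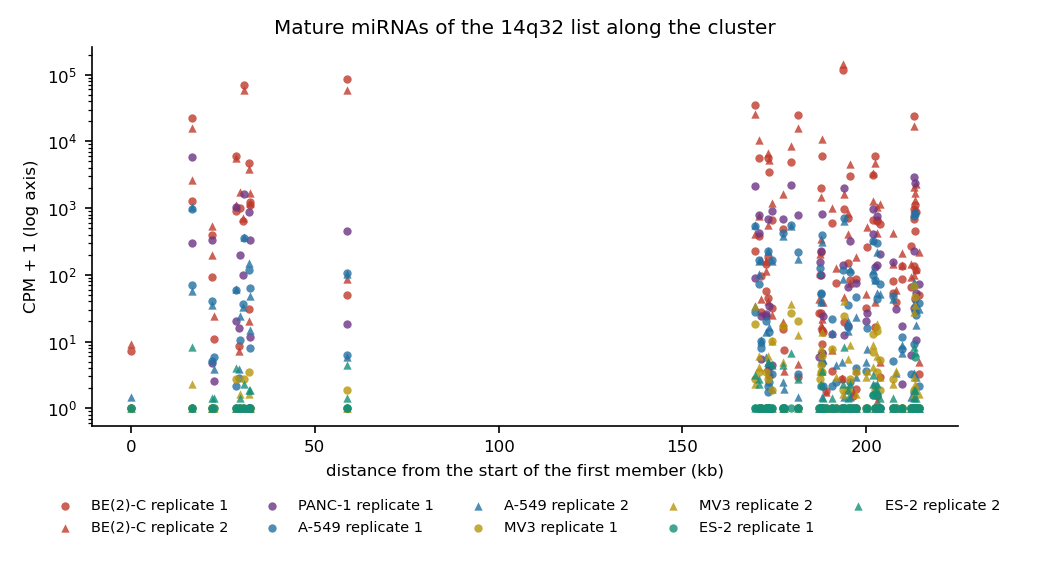
CPM + 1 (vertical, log axis) of the 91 mature miRNAs of the 14q32 list that have a RefSeq position, by distance in kb from the start of the first member; points are single libraries, coloured by line. BE(2)-C (red) lies above the other lines for most members along the 214 kb, PANC-1 (purple) and A-549 (blue) follow and overlap it for some, and most ES-2 and MV3 values are at or near 0 CPM.

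Outside 14q32, miR-218-5p was the most abundant miRNA of BE(2)-C by the mean of its libraries. It had 68764 and 88238 CPM in the BE(2)-C libraries, 178 and 183 in A-549, 513 and 547 in ES-2, 1912 and 1771 in MV3 and 110.4 in PANC-1 (log2 difference 7.70, SE 0.14, adjusted p = 2.73e-07). MiR-218 is made from introns of the axon guidance genes SLIT2 (chr4:20528299-20528319) and SLIT3 (chr5:168768211-168768231) and is known from motor neurons. MiR-7-5p, a neuroendocrine miRNA, had 68724 and 35823 CPM against 1079.8 to 4530.5 CPM (log2 difference 4.60, SE 0.26, adjusted p = 8.12e-06). The NEXTflex values did not reach the lower BE(2)-C library, but its libraries themselves differed by 0.94 on the log2 scale. MiR-139-5p, which lies in an intron of PDE2A at chr11:72615102-72615124, had 32565 and 19589 CPM in the BE(2)-C libraries, 12 and 21.8 in A-549, 16.8 and 24.4 in ES-2, 29 and 18.7 in MV3 and 9.64 in PANC-1 (log2 difference 10.49, SE 0.35, adjusted p = 1.22e-06). It was uniformly low in the 7 NEXTflex libraries.

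MiR-215-5p, a relative of miR-192-5p with the same seed, had 2346 and 2515 CPM against 0 to 29.1 CPM (log2 difference 9.27, SE 0.51, adjusted p = 7.94e-06). MiR-708-3p, from an intron of TENM4, had 1349 and 802 CPM against 0 to 42.1 CPM and was with miR-139-5p and miR-215-5p the part of the 12 largest increases that lies outside 14q32. MiR-151a-3p was higher with 41479 and 15542 CPM against 1159 to 3955 CPM (log2 difference 3.64, SE 0.34, adjusted p = 8.24e-05), although its libraries differed by 1.42 on the log2 scale. The tenth miRNA by level, miR-27b-3p, had 11559 and 34186 CPM, and A-549 with 14411 and 13055 CPM lay between them. Its log2 difference from the mean of the lines was 1.95 (adjusted p = 0.00267), and it was not called against each line.

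**Figure D3:**
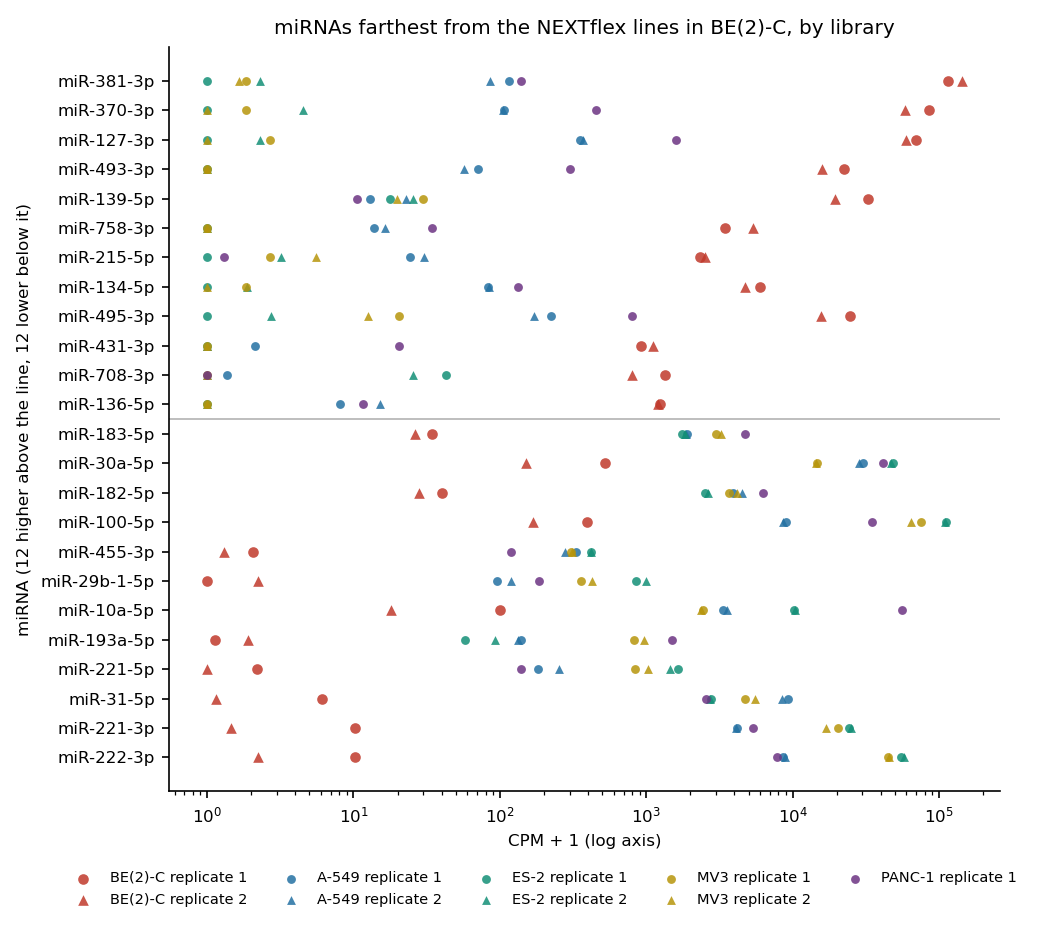
CPM + 1 (horizontal, log axis) in each of the 9 libraries for the 12 miRNAs with the largest increase and the 12 with the largest decrease in BE(2)-C among those called against each line; circles and triangles are replicates 1 and 2. The BE(2)-C libraries (red) are outside the range of the 7 NEXTflex libraries by the rule that chose these miRNAs, and 9 of the upper 12 belong to 14q32.

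The largest decreases concerned miR-221-3p and miR-222-3p, which lie next to each other on the X chromosome and are known to repress the cell cycle inhibitor CDKN1B. MiR-222-3p had 9.31 and 1.22 CPM in the BE(2)-C libraries, 8603 and 8863 in A-549, 55432 and 57520.4 in ES-2, 44646 and 45487 in MV3 and 7784 in PANC-1 (log2 difference -12.06, SE 0.52, adjusted p = 3.15e-06). MiR-221-3p had 9.31 and 0.459 CPM against 4103 to 24876 CPM (log2 difference -11.34, SE 0.65, adjusted p = 9.45e-06), and its 5p arm 1.2 and 0 against 138 to 1653. The summed level of their seed was 18.6 and 1.68 CPM in BE(2)-C and 12748 to 82396 CPM in the NEXTflex libraries. MiR-31-5p, hosted by MIR31HG at chr9:21512158-21512178, had 5.05 and 0.153 CPM in the BE(2)-C libraries, 9286 and 8418 in A-549, 2750.2 and 2709.8 in ES-2, 4698 and 5536 in MV3 and 2559.7 in PANC-1 (log2 difference -10.64, SE 0.56, adjusted p = 6.66e-06). In replicate 2 of BE(2)-C, miR-31-5p stayed below the level of 3 reads.

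MiR-21-5p, a common miRNA of adherent and cancer cells, led every NEXTflex library with 650347 and 641725 CPM in A-549, 282176 and 270352 in ES-2, 331546 and 321096 in MV3 and 335307 in PANC-1, but had 12460.2 and 12749 CPM in BE(2)-C (log2 difference -4.89, SE 0.12, adjusted p = 5.28e-07). All 12 mature arms of the list of miR-21, miR-22, miR-31, miR-100, miR-221 and miR-222 were lower, 11 of them than in each line. Of all tested miRNAs, 29.6% were lower, and 13.5% were lower than in each line. This list too was chosen with the levels of these libraries known and gives no independent evidence of its direction. The median log2 difference of the 12 arms was -5.24. Their summed level was 12982 and 13060 CPM in BE(2)-C and 387721 to 683962 CPM in the NEXTflex libraries. In Hep-G2 it was 167198 and 190362 CPM.

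MiR-182-5p and miR-183-5p, 2 members of a sensory organ cluster on chromosome 7, were low as well. MiR-182-5p had 39.2 and 26.9 CPM against 2511 to 6314 CPM (log2 difference -6.92, SE 0.17, adjusted p = 5.52e-07) and miR-183-5p 33.6 and 25.5 against 1765 to 4713. The BE(2)-C libraries were close to each other for this pair. MiR-30a-5p had 524 and 149 CPM against 14463 to 48886 CPM, and its log2 difference was -6.76. MiR-455-3p, from an intron of the collagen gene COL27A1, had 1.06 and 0.306 CPM against 118 to 419.7. MiR-193a-5p (0.133 and 0.917 CPM against 56.5 to 1504) and miR-29b-1-5p (0 and 1.22 against 95.1 to 1001) completed the 12 largest decreases together with miR-10a-5p and miR-100-5p, which are described with their families.

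Hep-G2, of the same preparation as BE(2)-C, was below all 7 NEXTflex libraries for most of the 12 largest decreases as well. Among all 540 tested miRNAs, both Hep-G2 libraries were below all 7 for 219. MiR-31-5p had 0.421 and 0.494 CPM in Hep-G2, miR-193a-5p 1.43 and 1.4, miR-29b-1-5p 0.926 and 0.824, miR-10a-5p 10.9 and 11.9, miR-30a-5p 29 and 30.9 and miR-100-5p 84 and 21.3 CPM. MiR-222-3p had 241 and 311 CPM, miR-221-3p 147.5 and 179 and miR-221-5p 38 and 56.8 CPM, below the NEXTflex lines but above BE(2)-C. MiR-182-5p (1907 and 2042 CPM) and miR-183-5p (1132 and 1173) were less than 2-fold below the lowest NEXTflex library (2511 and 1765 CPM). PANC-1, the highest, had 6314 CPM of miR-182-5p and 4713 CPM of miR-183-5p. MiR-455-3p (104 and 125 CPM in Hep-G2) lay around its lowest NEXTflex value. Of the 12 largest increases, miR-215-5p had 57.9 and 74.3 CPM in Hep-G2 and the others 0 to 6.90 CPM. Both lines are set against the same NEXTflex libraries, and line and preparation cannot be told apart for these decreases.

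Of the 18 members of the neuronal and neuroendocrine list, 15 were tested, 11 were higher, 1 was lower and 3 were not called, which became 9 higher and 3 lower after quantile normalization. The list's median was 4.39, and its summed level was 167390 and 152064 CPM in BE(2)-C against 2902 to 9323 CPM in NEXTflex. In Hep-G2 it was 5437 and 5736 CPM. This and the following counts are to be read against the 51.5% of all tested miRNAs that were higher and the 29.6% that were lower. For counts against each line, these shares were 31.9% and 13.5%. MiR-9-5p, a miRNA of neural progenitors, had 15875 and 17555 CPM in the BE(2)-C libraries, 209 and 453 in A-549, 216 and 301 in ES-2, 124 and 52.9 in MV3 and 1739 in PANC-1 (log2 difference 5.68, SE 0.41, adjusted p = 2.37e-05). MiR-375, known from neuroendocrine cells and pancreatic islets, had 6373 and 4866 CPM against 2.58 to 73.6 CPM (log2 difference 8.12, SE 1.06, adjusted p = 0.000402). ES-2 replicates of miR-375 differed with 3.61 and 73.6 CPM. MiR-129-5p had 3724 and 1941 CPM against 0.971 to 161 (log2 difference 7.55, SE 0.41, adjusted p = 7.3e-06), and miR-149-5p 2105 and 1298 against 5.23 to 296 (log2 difference 4.39, SE 0.45, adjusted p = 0.000126).

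Of the 15 tested members, 2 had passed the filter only through BE(2)-C and therefore had to be higher. MiR-124-3p, the most abundant miRNA of mature neurons and named here after its values were seen, was one of them, with 17.7 and 28.1 CPM in BE(2)-C and 0 to 0.485 CPM in the NEXTflex libraries. MiR-132-3p, which neuronal activity induces through CREB, was lower with 36.7 and 32.3 CPM against 89.6 to 318 (log2 difference -2.39, SE 0.16, adjusted p = 1.88e-05). MiR-137 had 54.9 and 153 CPM and overlapped MV3 with 58.8 and 85.8 CPM. MiR-128-3p, with 1446 and 1692 CPM, lay within the NEXTflex range of 689 to 2938 CPM. MiR-9-3p did not pass the test (log2 difference 0.87, SE 0.40, adjusted p = 0.0832), unlike its 5p arm, and PANC-1 held 464 CPM of it. MiR-138-5p was higher against the mean (1.06), but its difference was -0.57 after quantile normalization and -0.54 without PANC-1, the line that held 0.205 CPM.

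Of the let-7 family, which represses growth-promoting messenger RNAs, most members were lower. Of its 9 members tested, 8 were lower, each also against every single line, and 1 was higher. The summed level was 18374 and 27232 CPM in BE(2)-C and 105582 to 212989 CPM in the NEXTflex libraries, with a median log2 difference of -2.94. Hep-G2 was lower still, at 1527 and 1686 CPM. Let-7a-5p had 6315 and 12209 CPM in the BE(2)-C libraries, 44945 and 51642 in A-549, 119422 and 127669 in ES-2, 100942 and 109876 in MV3 and 116052 in PANC-1 (log2 difference -3.39, SE 0.25, adjusted p = 2.6e-05). Let-7d-5p showed the largest decrease, with 17.4 and 31.7 CPM against 692 to 2046 (log2 difference -5.93, SE 0.22, adjusted p = 2.09e-06), followed by miR-98-5p with 29.4 and 37.2 against 940.5 to 5595. The exception was let-7c-5p, with 1444 and 1593 CPM, above the mean of the lines (log2 difference 0.90, SE 0.15, adjusted p = 0.00144) but below ES-2 with 1678 and 1738 CPM, and its difference turned to -0.04 after quantile normalization. Let-7 members differ by few bases, and how reads matching several of them were assigned is not given in the sources used here. The sequences of 3 members show how close they are, with the seed in capitals.
let-7a-5p: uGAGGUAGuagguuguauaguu
let-7c-5p: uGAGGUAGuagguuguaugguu
let-7d-5p: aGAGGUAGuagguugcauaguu

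Let-7c and miR-99a share a host transcript, MIR99AHG on chromosome 21, where they lie 0.737 kb apart. MiR-99a-5p, at chr21:16539101-16539122, had 51964 and 54466 CPM in the BE(2)-C libraries, 163 and 170.3 in A-549, 799 and 762 in ES-2, 532 and 451 in MV3 and 40.9 in PANC-1 (log2 difference 7.87, SE 0.13, adjusted p = 2.52e-07). MiR-100-5p, the paralogue from MIR100HG on chromosome 11, went the other way with 391 and 166 CPM in the BE(2)-C libraries, 9069.6 and 8668 in A-549, 111540 and 110750 in ES-2, 75284 and 64566 in MV3 and 34818 in PANC-1 (log2 difference -7.26, SE 0.30, adjusted p = 3.05e-06). MiR-99b-5p, from the third paralogous cluster on chromosome 19, had 8719 and 7386 CPM against 2086 to 7249 (log2 difference 1.11, SE 0.12, adjusted p = 0.00018). The summed level of this seed in BE(2)-C, 61074 and 62019 CPM, lay within the NEXTflex range of 13257 to 114470 CPM. Members of these 3 clusters outside the naming rule, miR-99b-5p, miR-125a-5p and miR-125b-5p, were named after their values were seen. MiR-125a-5p of the chromosome 19 cluster was lower (583 and 1188 CPM against 3557 to 8979), and so was miR-125b-5p (853 and 1648 against 1353 to 13239.7), for which A-549 lay between the BE(2)-C libraries.

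Of the HOX cluster miRNAs, 7 of 8 were tested, 4 were lower and 2 higher. MiR-10a-5p, from the HOXB cluster at chr17:48579904-48579926, had 99.3 and 17.1 CPM in the BE(2)-C libraries, 3352 and 3584 in A-549, 10271 and 10396 in ES-2, 2447 and 2376 in MV3 and 56313 in PANC-1 (log2 difference -7.61, SE 0.57, adjusted p = 2.86e-05). MiR-10b-5p, from the HOXD cluster, was higher with 7143 and 4889.7 CPM against 656 to 2886 (log2 difference 1.76, SE 0.17, adjusted p = 8.96e-05). MiR-196a-5p had 62.8 and 131 CPM against 209 to 11978 and miR-196b-5p 1.06 and 0.306 against 9.37 to 253, both lower. MiR-615-3p, from an intron of HOXC5, was higher than the mean of the lines (1.95) with 901 and 992 CPM, but PANC-1 held 1965 CPM.

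The MYC-regulated miR-17 clusters did not move in a single direction. Of 19 members, 17 were tested, 6 were higher, 3 lower and 8 not called, with a median of 0.18, which is below the 0.98 of all tested miRNAs. After quantile normalization 4 were higher and 9 lower. MiR-25-3p had 10012 and 10014 CPM against 1934 to 4071 (log2 difference 1.84, SE 0.11, adjusted p = 1.04e-05) and miR-106b-3p 4482 and 3043 against 307 to 853 (log2 difference 2.85, SE 0.18, adjusted p = 1.53e-05). These 2 were higher than in each line. MiR-92a-3p, which shares its seed with miR-25-3p, was lower with 10036 and 14700.3 CPM against 12603 to 53543 (log2 difference -1.17, SE 0.17, adjusted p = 0.000607), although A-549 lay between the BE(2)-C libraries. MiR-17-5p and miR-20a-5p depended on the library, with 926 and 3287 and 678 and 2777 CPM. Without BE(2)-C replicate 1, 10 members were higher, and without replicate 2, 6 were lower.

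Of the mesenchymal list, 10 of 10 members were higher, 7 of them than in each line, with a median of 5.44. Of these, 2 had passed the filter only through BE(2)-C, miR-214-5p among them, and had to be higher. The summed level of the list in Hep-G2 was 2759 and 2579 CPM, against 27251 and 26708 CPM in BE(2)-C and 58.7 to 15490.2 CPM in NEXTflex. MiR-143-3p, a miRNA of smooth muscle and fibroblasts, had 23979 and 18824 CPM in the BE(2)-C libraries, 1525 and 1553 in A-549, 7.82 and 21.4 in ES-2, 1216 and 1197 in MV3 and 29.8 in PANC-1 (log2 difference 6.98, SE 0.34, adjusted p = 5.17e-06). MiR-214-5p had 248 and 402 CPM against 0 to 0.485 CPM and miR-145-5p 123 and 193 against 0 to 18.9. MiR-199a-3p was higher against the mean (2.60), with 6.74 and 3.88 CPM in A-549 and 14.4 in PANC-1, whereas ES-2 with 4039 and 4071 CPM and MV3 with 8771 and 8078 CPM exceeded BE(2)-C with 885 and 2365 CPM. Reads of miR-199a-3p and miR-199b-3p, which come from near-identical hairpins, are uncertain. Of the epithelial miR-200 list, 6 of 10 members were tested, 3 were lower, 0 higher and 3 not called. MiR-200b-3p had 9.97 and 7.03 CPM against 5.66 to 833, where the upper end is A-549, and no member reached 100 CPM in BE(2)-C.

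The 5 tested members of the miR-34 list, transcriptional targets of p53, were all lower against the mean but none against each line. MiR-34c-5p had 2.53 and 0 CPM in the BE(2)-C libraries, 145 and 91.7 in A-549, 1.2 and 3.05 in ES-2, 223 and 194 in MV3 and 36.7 in PANC-1 (log2 difference -4.44, SE 0.54, adjusted p = 0.00029), so that BE(2)-C and ES-2 were both near 0. MiR-34a-5p had 1.33 and 0 CPM against 0 to 268, and MV3 was at 0 for it.

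Markers of other cell types were checked in the same libraries. Of 6 hepatocyte miRNAs, 4 were tested and 2 higher, a share near the 51.5% of all tested miRNAs, namely miR-148a-3p (4230.1 and 1311 CPM against 6.61 to 25.5) and miR-192-5p (1288 and 578 against 54.5 to 2874). The summed level of the list was 6509 and 2159 CPM in BE(2)-C, 139 to 4787 CPM in NEXTflex and 768677 and 742057 CPM in Hep-G2. Of 8 blood cell miRNAs, 4 were tested, 2 higher and 1 lower, shares near the 51.5% and 29.6% of all tested miRNAs. The lower one, miR-142-3p, had 1.33 and 0.459 CPM against 0 to 326, and its direction turned in edgeR and DESeq2. MiR-451a, which had passed the filter only through BE(2)-C, had 299 and 46 CPM against 0 to 0.971, whereas its cluster neighbour miR-144-3p was at 0 in every library and miR-223-3p was at 0.399 and 0 CPM. The blood cell sum was 718 and 373 CPM in BE(2)-C and 131 to 1356 CPM in NEXTflex. Of 6 muscle miRNAs, 2 were tested and higher against the mean (1 with TMM factors, and miR-133a-3p turned with a pseudocount of 10), but PANC-1 held 6273 CPM of miR-1-3p against 287 and 219 in BE(2)-C. Of 6 melanocyte miRNAs, only miR-204-5p was tested, having passed through BE(2)-C alone, with 70.2 and 41 CPM against 0 to 2.91, and the melanocyte-defining miR-211-5p was at 0 in every library, those of the melanoma line MV3 included. None of 9 pluripotency miRNAs reached the filter, and their sum was 5.45 and 3.06 CPM in BE(2)-C. Single miRNAs of these lists under 100 CPM were named after their values were seen. The part of other cells in the results was not tested.

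**Figure D4:**
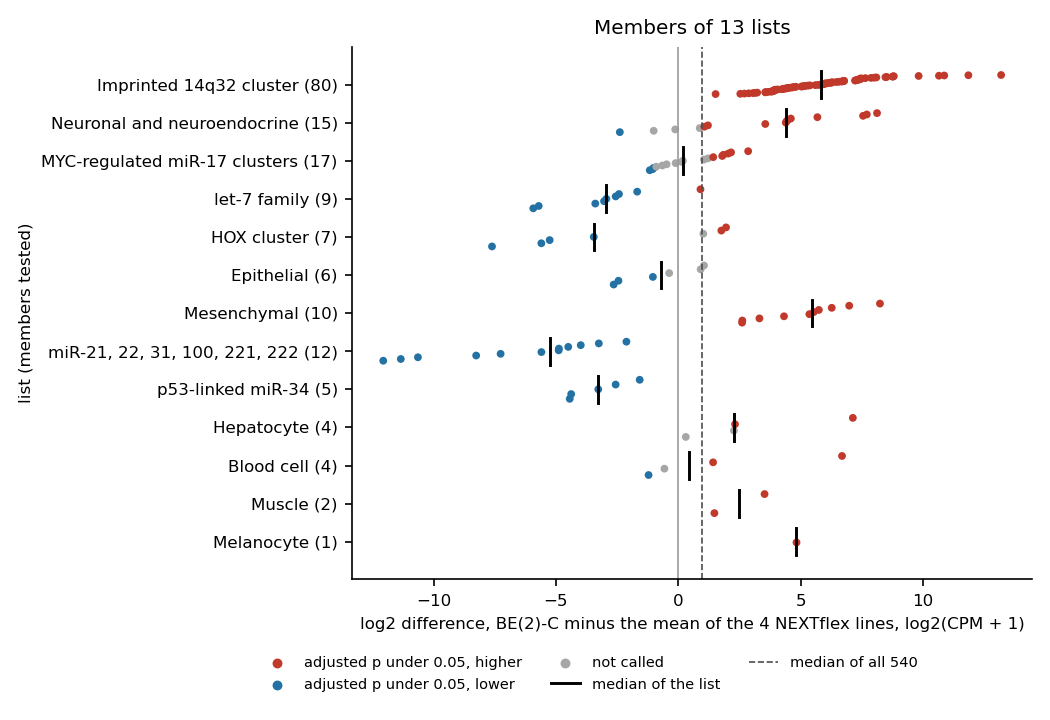
Log2 difference of BE(2)-C from the mean of the 4 NEXTflex lines (horizontal) for the tested members of 13 lists (vertical, number tested in brackets); red and blue points passed an adjusted p under 0.05, grey ones did not, black bars are list medians and the dashed line is the median of all 540 miRNAs. Among lists with at least 5 tested members, the 14q32 and mesenchymal lists lie wholly to the right, the miR-21, miR-31 and miR-221 list and miR-34 wholly to the left, and let-7 to the left except for let-7c-5p.

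Seeds were compared next, since miRNAs with the same seed share many targets. Among the tested miRNAs with a sequence, 54 seeds were shared by several miRNAs. In 2 of these, a member was higher and another lower than in each line, which were the seeds of miR-99a and miR-100 and of miR-25 and miR-92b. The following families were named after their values were seen. All 6 members of the miR-15 and miR-16 seed, which restrain cell cycle genes, were lower, 4 of them than in each line, and their sum was 266 and 626 CPM against 2420.1 to 6067 CPM. MiR-16-5p had 184 and 406 CPM against 1527 to 3890.2 (log2 difference -3.40, SE 0.28, adjusted p = 4.55e-05). All 3 miR-29 members with a 3p seed, regulators of collagens, were lower, with a sum of 282 and 535 CPM against 3819 to 26045 CPM. The sum of the 3 miR-30 members with a sequence was 1626 and 2049 CPM against 19947 to 58649 CPM. By contrast, the 3 miR-378 members were higher than in each line, with 3187 and 3075 against 139 to 700.5 CPM. The 3 members of the miR-148 and miR-152 seed were also higher, with 7838 and 8183 against 934 to 2723 CPM. Of these 5 families, no member counted here was called in the other direction after TMM or quantile normalization. Quantile normalization left 2 of 3 calls in the miR-148 and miR-152 family and all calls in the others. Both rescale the same libraries and give no independent evidence of direction.

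The base composition of the called groups was compared as well. The median GC content was 50% (42.9% to 59.1%, quartiles) in the 249 higher miRNAs with a sequence and 45.5% (40.9% to 54.5%) in the 145 lower ones, against 47.8% in all 488. Across these 488 miRNAs, GC content and the log2 difference had a Pearson r of 0.09, which is a description over miRNAs of the same libraries. A first base U was found in 36.1% of the higher, 47.6% of the lower and 40.8% of all miRNAs with a sequence.

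The arm that a hairpin contributed also differed. The ratio of the 5p to the 3p arm, log2 of (CPM + 1) on each side, was tested in 113 hairpins. It was shifted toward the 5p arm in 35 (31%) and toward the 3p arm in 38 (33.6%) in BE(2)-C. Hairpins were kept by a mean over the 5 lines of at least 10 CPM on both arms, so single lines could lack both. For miR-151a, the 3p arm had 41479 and 15542 CPM and the 5p arm 24.9 and 32.4 CPM in BE(2)-C, whereas the NEXTflex lines held 1159 to 3955 and 746 to 2799 CPM (difference of log2 ratios -9.47, SE 0.39, adjusted p = 1.5e-07). In Hep-G2, of the same preparation, the arms had 11622 and 11165 and 3.7 and 4.53 CPM. The other large shifts toward 3p were miR-370, miR-31, miR-582 and miR-493. For miR-493, the 3p arm led in BE(2)-C (22385 and 15847 against 1277 and 2621 CPM), but the 5p arm led in A-549 (957 and 1055 against 70.4 and 55.8 CPM) and PANC-1. Both arms of miR-31 were near 0 in BE(2)-C and both arms of miR-370 in ES-2 and MV3, so that these ratios rested on the pseudocount. In ES-2 and MV3, miR-493 had 0 to 7.41 CPM of the 5p arm and 0 CPM of the 3p arm. The arms of miR-582 had 0 and 0.103 CPM in PANC-1. The sizes of these shifts thus depended in part on the pseudocount as well.

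Large shifts toward 5p were found for miR-29c, miR-222, miR-455, miR-362 and miR-369, of which miR-222 had both arms near 0 in BE(2)-C. In BE(2)-C, miR-455-3p had 1.06 and 0.306 CPM and miR-362-3p 0.133 and 1.38 CPM. MiR-29c-5p had 0 to 8.24 CPM in the NEXTflex libraries, and miR-369-5p 0 to 1.29 CPM in ES-2 and MV3. The sizes of these shifts thus depended on the pseudocount. In 7 hairpins, the leading arm of both BE(2)-C libraries was the minor arm in all 7 NEXTflex libraries: miR-29c, miR-32, miR-199a, miR-361, miR-365a, miR-455 and miR-1306. MiR-361 had 1468 and 998 CPM of the 3p and 87.9 and 164 CPM of the 5p arm in BE(2)-C, against 126 to 468 and 265 to 759.9 CPM in NEXTflex (difference of log2 ratios -4.23, SE 0.42, adjusted p = 3.2e-05). In Hep-G2 its arms had 294 and 346 and 16 and 20.02 CPM. MiR-29c-5p had 164 and 89.3 CPM and miR-29c-3p 5.98 and 5.05 CPM in BE(2)-C (difference of log2 ratios 7.33, SE 0.73, adjusted p = 3.2e-05), and Hep-G2 had 10.1 and 12.3 and 0.168 and 0.577 CPM. MiR-455 led with the 5p arm in Hep-G2 too (909.7 and 974 against 104 and 125 CPM). MiR-199a led with 5p in BE(2)-C (1143 and 2982 against 885 and 2365 CPM), whereas in Hep-G2 the 3p arm led at 6.14 and 4.28 against 1.01 and 0.494 CPM. The mature sequences of miR-199a-3p and miR-199b-3p are identical in RefSeq, and their summed level in BE(2)-C, 1335 and 3519 CPM, was above the 5p arm, so that the leading arm of miR-199a depended on how these reads were assigned. The 3 other hairpins were less abundant. MiR-32 had 53.6 and 179.8 CPM of the 5p and 18.3 and 36.5 CPM of the 3p arm in BE(2)-C, and 30.5 and 30.2 and 14.5 and 15.7 CPM in Hep-G2. MiR-365a had 129 and 94.2 and 21.8 and 30.4 CPM in BE(2)-C, and 7.49 and 11.6 and 3.28 and 5.77 CPM in Hep-G2. MiR-1306, whose 3p arm led in BE(2)-C, had 6.52 and 9.79 and 36.3 and 21.6 CPM, and 0.253 and 0.247 and 1.18 and 1.65 CPM in Hep-G2. The 5p arm is given first for these 3, and its order to the 3p arm was the same in Hep-G2 as in BE(2)-C. The 3p arms of miR-365a and miR-365b share a seed, and how their reads were assigned is not given in the sources used here. The summed level of this seed in BE(2)-C, 45.9 and 58.1 CPM, was below the 5p arm of miR-365a. The ratio of miR-365b was shifted the other way, toward 3p (difference of log2 ratios -2.42). Line and preparation cannot be told apart in these ratios, as the 2 Novogene lines and the 4 NEXTflex lines do not cross.

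The size of the disagreement between the BE(2)-C libraries held under other scalings, but its direction did not. Of the 59 miRNAs over 2-fold apart in CPM, 10 were higher in replicate 1 and 49 in replicate 2, and the median of replicate 1 minus replicate 2 was -0.41 on the log2 scale over 231 miRNAs. With TMM factors within the 2 libraries, 21 and 37 of 58 were higher in replicate 1 and replicate 2. With TMM factors over the 9 libraries, a scaling chosen after seeing the data, the counts were 35 and 17 of 52 and the median was 0.08. The directions given here for single miRNAs are those in CPM. MiR-122-5p, a hepatocyte miRNA, had 823 and 5.96 CPM, miR-184 543 and 10.1, miR-451a, a red blood cell miRNA, 299 and 46 and miR-148a-3p 4230.1 and 1311 CPM. In the NEXTflex libraries these miRNAs did not exceed 45.1, 3.49, 0.971 and 25.5 CPM. Hep-G2 had 64 and 50.0 CPM of miR-122-5p, 27.1 and 23.3 of miR-184, 4.12 and 3.46 of miR-451a and 752841 and 725599 CPM of miR-148a-3p. MiR-122-5p did not pass the test against the NEXTflex lines (log2 difference 2.27, SE 1.70, adjusted p = 0.248), and leaving out replicate 2 gave 5.71 whereas leaving out replicate 1 gave -1.18. The other miRNAs named as higher in replicate 1 were miR-30a-5p, miR-100-5p, miR-151a-3p and miR-3158-3p (217 and 74.3 CPM). Among hepatocyte markers, miR-192-5p was higher in replicate 1 too (1288 and 578 CPM), whereas miR-194-5p was not (159.7 and 258 CPM).

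Replicate 2 was higher for miR-154-3p (79.9 and 426 CPM), miR-656-3p (48.5 and 217), miR-374a-5p (71.4 and 314), miR-374b-5p (86.7 and 328), miR-107 (67.4 and 272), miR-369-3p (457 and 1680.4), miR-17-5p and miR-20a-5p. Sequences of 3 miRNAs higher in replicate 2 are given first, and capitals mark the seed.
miR-154-3p: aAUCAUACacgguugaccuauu
miR-656-3p: aAUAUUAUacagucaaccucu
miR-20a-5p: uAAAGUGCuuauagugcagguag
These were higher in replicate 1.
miR-122-5p: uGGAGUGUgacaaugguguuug
miR-184: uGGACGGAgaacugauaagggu
The median GC content was 42.9% (36.4% to 47.8%, quartiles) in the 45 miRNAs with a sequence that were higher in replicate 2, against 47.8% (40.9% to 54.5%) in 214 miRNAs of at least 100 CPM. Across those 214, GC content and the log2 difference of replicate 1 minus replicate 2 had a Pearson r of 0.28. For A-549, with 138 miRNAs, r was 0.12, for ES-2, with 128, it was 0.06, and for MV3, with 142, it was -0.09. The miRNAs of a line share 2 libraries, and no test was made. MiRNAs of chromosome 14 made up 13 of the 49 higher in replicate 2 in CPM, against 61 of all 231. They made up 0 of the 10 higher in replicate 1. For miR-107, the direction against the NEXTflex lines depended on the library, with -0.67 without replicate 2 and 0.33 with both.

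**Figure D5:**
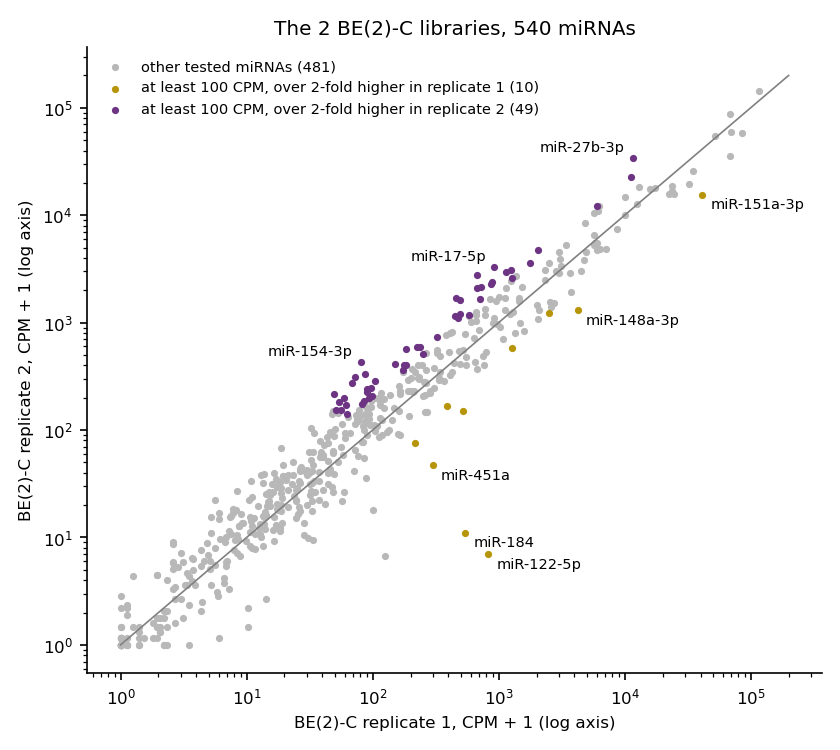
CPM + 1 of the 540 tested miRNAs in BE(2)-C replicate 1 (horizontal, log axis) and replicate 2 (vertical, log axis); the line marks equal levels in CPM. Of the miRNAs with a mean of at least 100 CPM, 49 lie over 2-fold above the line (purple) and 10 over 2-fold below it (ochre), miR-122-5p and miR-184 farthest.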

How the data were processed

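Small RNA libraries of 6 human tumour cell lines were deposited, of which the 9 of BE(2)-C and the 4 NEXTflex lines were compared and Hep-G2 was used for values only. The authors trimmed adapters (cutadapt 1.14 is among the tools of the submitters' processing notes, with Bowtie2 2.3.2, SAMtools 1.5, featureCounts 1.5.3 and edgeR 3.30.3) and counted reads per miRNA. Which settings served reads that match several miRNAs is not given in the sources used here. The deposited PANC-1 values are CPM. The other deposited values are a normalized signal, CPM divided by a TMM factor within each line's table, as the values themselves show. From the steps between low values, whole reads were recovered for all non-zero values within 0.1 read. Rows of the same name were summed and each library was rescaled to 1e+06.

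Where the mean of any line reached 10 CPM, the log2(CPM + 1) values of a miRNA entered a linear model in limma 3.58.1 (R 4.3.3; trended empirical Bayes, 2-sided, 4 residual degrees of freedom, Benjamini-Hochberg over all 540). The contrast was BE(2)-C minus the mean of the 4 line means, with the spread pooled over lines, so that PANC-1 was assumed to vary like the others. "Each line" means an adjusted p under 0.05 and the same sign in all 4 single contrasts. Arm ratios were fitted the same way for hairpins whose mean over the 5 line means was at least 10 CPM on both arms. Single lines could thus hold no reads of either arm. The code was tested on simulated data. Sequences came from RefSeq GRCh38.p14 and hosts from GENCODE release 44. Tables were prepared in Python 3.11.15 with pandas 2.3.3 and numpy 2.4.6.

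Named were the 10 most abundant miRNAs of BE(2)-C, the 12 largest differences in each direction among those called against each line, outside the NEXTflex range and at least 100 CPM on the higher side, the 8 largest differences between the BE(2)-C libraries in each direction, list members of at least 100 CPM in a line, and the 5 largest arm differences in each direction. The members and the 14 lists were chosen with earlier results of these data known. Alternatives changed scaling, pseudocount, filter, copies, weights, replicate block, test (edgeR 4.0.16, DESeq2 1.42.0 on recovered read counts) and libraries.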

Additional observations from a re-analysis of the deposited data

Results flagged for a closer look

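The 18 miRNAs among the largest increases and the most abundant in BE(2)-C were looked up in Hep-G2, which entered no test. Some of these Hep-G2 values are also given above. MiR-151a-3p was above the NEXTflex libraries there as well, with a mean of 11393 CPM (11622 and 11165), against at most 3955 CPM in a NEXTflex library. MiR-215-5p had a mean of 66.1 CPM in Hep-G2 (57.9 and 74.3), against at most 29.1 CPM. Hep-G2 shares the preparation of BE(2)-C, and the part of preparation was not tested.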

How the results depend on the processing

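Calls against the mean were 278 higher and 160 lower. Without a filter, 488 of 1513 miRNAs were higher (287 against each line), and with at least 100 CPM in a line, 176 of 309 were higher (110 against each line) and 101 lower. Quantile normalization gave 207 higher and 233 lower, and 116 and 122 against each line. TMM factors (284 and 160), edgeR (295 and 133), DESeq2 (290 and 141), library weights (247 and 136) and scaling to reads outside 14q32 and miR-21-5p (279 and 158, chosen after seeing the data) moved these counts by less than 1.5 times. Leaving out single libraries gave 253 to 276 higher and 142 to 163 lower, and 147 to 215 and 70 to 86 against each line. With a mean of at least 100 CPM on both arms, 8 arm ratios moved toward 5p and 14 toward 3p, of 36. Of the disagreeing BE(2)-C miRNAs, 98 were found at 10 CPM and 7 over 4-fold.

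Across leave-one-out fits, neuronal miRNAs called lower ranged from 1 to 2, miR-17 cluster members called higher from 5 to 10 and lower from 3 to 6, epithelial higher from 0 to 1, blood cell higher from 1 to 2 and lower from 1 to 2, and muscle higher from 1 to 2. TMM factors left 1 muscle miRNA higher. The log2 difference changed sign after quantile normalization for miR-138-5p (-0.57), miR-18a-5p (-0.98), miR-106b-5p (-1.02), miR-194-5p (-1.03), miR-107 (-0.90) and miR-9-3p (-0.35), and the let-7c-5p log2 difference became -0.0407. Leaving out single libraries gave -0.67 (without BE(2)-C replicate 2) to 1.33 for miR-107, -0.57 (without PANC-1, and -0.52 without BE(2)-C replicate 2) to 0.88 for miR-18a-5p, -0.54 (without PANC-1) to 1.31 for miR-138-5p, -0.24 (without BE(2)-C replicate 2) to 0.52 for miR-106b-5p and -0.24 to 0.13 (without PANC-1) for miR-128-3p. The miR-194-5p log2 difference was -0.0419 (without BE(2)-C replicate 2) to 0.65. Without BE(2)-C replicate 1, miR-122-5p was at -1.18 (5.71 without replicate 2), the miR-374b-5p log2 difference at 0.12 (-1.79) and the miR-19a-3p log2 difference at 0.0596 (-1.02). MiR-142-3p changed sign in edgeR (1.22) and DESeq2 (0.40), miR-142-5p too (2.64 and 1.98), and the miR-133a-3p log2 difference was -0.0832 with a pseudocount of 10. The cause was not tested. Same-numbered libraries of different lines did not deviate together (r of -0.05 to 0.01). Replicates of A-549, ES-2 and MV3 lay close, so this cannot decide whether the numbers mark shared batches. The replicate block gave 272 higher and 159 lower, 163 and 72 against each line, and 34 and 38 arm ratios. Over 161 single miRNAs and hairpins and 26 settings, 3160 values kept direction and call, 41 gained and 28 lost a call, and 22 changed sign. Depth limits levels under 0.308 to 2.56 CPM, and the spread between the 2 BE(2)-C libraries limits its levels above that.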
